A study of Saccharomyces cerevisiae with 36 samples.

Results

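The 33 genes of the citric acid cycle and of pyruvate entry into it were followed through 36 RNA-seq libraries of the yeast Saccharomyces cerevisiae. They were taken by name from 7122 gene lines in each of 3 count tables: 29 by the common name the tables give and 4 (KGD4, MPC1, MPC2 and MPC3, which the tables list under an older name or by systematic name) by the RefSeq locus tag. The list holds the subunits of the mitochondrial pyruvate carrier and the pyruvate dehydrogenase complex, the pyruvate carboxylases and the malic enzyme, the citrate synthases, the enzymes of the cycle itself, and 5 carriers that move cycle acids across the inner mitochondrial membrane. All 33 passed the filter on low counts, which left 6612 genes to test.

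The citric acid cycle oxidises acetyl-CoA in the mitochondrion, passes its electrons to the respiratory chain and supplies oxoglutarate and oxaloacetate for amino acids. In yeast the cycle's genes are known to be repressed by ample glucose and induced on non-fermentable carbon, largely through the Hap2/3/4/5 complex, which binds CCAAT boxes. When the cycle works poorly, the retrograde regulators Rtg1 and Rtg3 are known to maintain the early steps that make oxoglutarate, with CIT2 as the standard reporter.

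The cultures were chemostats, where fresh medium flows in steadily and cells grow only as fast as a scarce nutrient arrives, and the series concerns building small versions of them. Each of 4 limitations was grown in 3 sets with 3 libraries a group, stated to be biological triplicates. Nitrogen limitation (N-lim) had 6% glucose, ethanol limitation (Et-lim) 0.5% ethanol, combined oxygen and glucose limitation (OxGlu-lim) 1% glucose, and glucose limitation (Glu-lim), the reference here, 0.75% glucose. The DASGIP tagged set used a 1 L DASGIP vessel and HAP1-TAP, a CEN.PK 113-5D derivative whose heme-dependent activator Hap1p carries a purification tag at its C terminus. The MC tagged set used HAP1-TAP in MC vessels (taken as the mini-chemostats of the series title), and the MC untagged set grew CEN.PK 113-5D in MC vessels. The carbon source and its amount change with the limitation, so scarcity of a nutrient and the carbon supplied cannot be told apart. The labels give no batch or date, so a difference between sets cannot be told apart from a batch that ran with a set, and both the vessel and the strain comparison use the same MC tagged libraries.

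Counts per library ran from 10700506 to 22488845. Mitochondrially encoded lines took 9.19% to 16.5% of them under N-lim, 16.9% to 25.2% under OxGlu-lim, 25.1% to 38.6% under Glu-lim and 31.5% to 46.6% under Et-lim. Genes that mark each condition were high where the labels place it: the allantoate permease DAL5 was higher under N-lim by 7.07 ± 0.12, the glyoxylate enzyme ICL1 under Et-lim by 4.58 ± 0.09 and the hypoxic cell wall gene TIR1 under OxGlu-lim by 6.52 ± 0.15. Here and below a fold change is on the log2 scale against Glu-lim with its standard error, as the mean of the 3 sets (9 libraries against 9), unless another comparison is named. A gene is called higher or lower where edgeR's quasi-likelihood test with Benjamini-Hochberg adjustment over all 6612 genes gave an adjusted p under 0.05. Levels are in CPM, that is, counts scaled to a common library size with TMM factors. The 3 comparisons with Glu-lim share the Glu-lim libraries.

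The members together took 1.31% to 1.72% of the counts in nuclear reading frames under Glu-lim and 2.79% to 3.57% under Et-lim. The share was 1.74% to 2.28% under OxGlu-lim and 1.16% to 1.50% under N-lim, so the Et-lim libraries stood above all others. In bulk RNA, a change in some cells and a change in all cells cannot be told apart. Under Et-lim 27 members were called higher, 4 lower and 2 neither, where 30.6% of all tested genes were called higher and 28.7% lower. Their median log2 difference was 0.73, against 0.01 over all tested genes. Of the 33, 14 were higher by at least 2-fold, a size that 2.04% of all tested genes reached.

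Under N-lim 5 members were called higher and 21 lower, where 34.3% of all tested genes were called higher and 37.4% lower. Under OxGlu-lim 5 were called higher and 19 lower, where 32.9% and 32.3% were. The medians over the members were -0.27 and -0.17, against -0.02 and 0.01 over all tested genes. These splits turned when libraries were scaled by their plain totals, which moved the median of all genes by 0.41 under N-lim and 0.29 under OxGlu-lim: 16 members were then called higher and 10 lower under N-lim, and 12 higher and 8 lower under OxGlu-lim. Leaving out a library at a time gave 2 to 5 higher under N-lim, with 2 without replicate 1 of MC untagged Glu-lim and 3 without replicate 2 of DASGIP tagged N-lim, replicate 3 of MC tagged Glu-lim or replicate 2 of MC untagged Glu-lim. Leaving out single libraries also gave 14 to 20 lower under OxGlu-lim. With nuclear protein-coding lines only, so without the mitochondrial counts, the calls were 5 and 21 under N-lim and 5 and 17 under OxGlu-lim.

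In each set the Et-lim libraries all lay above the libraries of the other 3 limitations for 20 members, where 4.08% of all tested genes did so. The other patterns were rarer. The OxGlu-lim libraries lay above for PYC1, MPC2 and MAE1 (background 4.42%) and below for LSC1 and FUM1 (3.61%). The N-lim libraries lay below for CIT3 and MPC3 (5.55%), and the Glu-lim libraries lay below for CIT2 alone (1.18%). For 0 members did the N-lim libraries lie above all others, where 7% of all tested genes had them there.

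**Figure D1:**
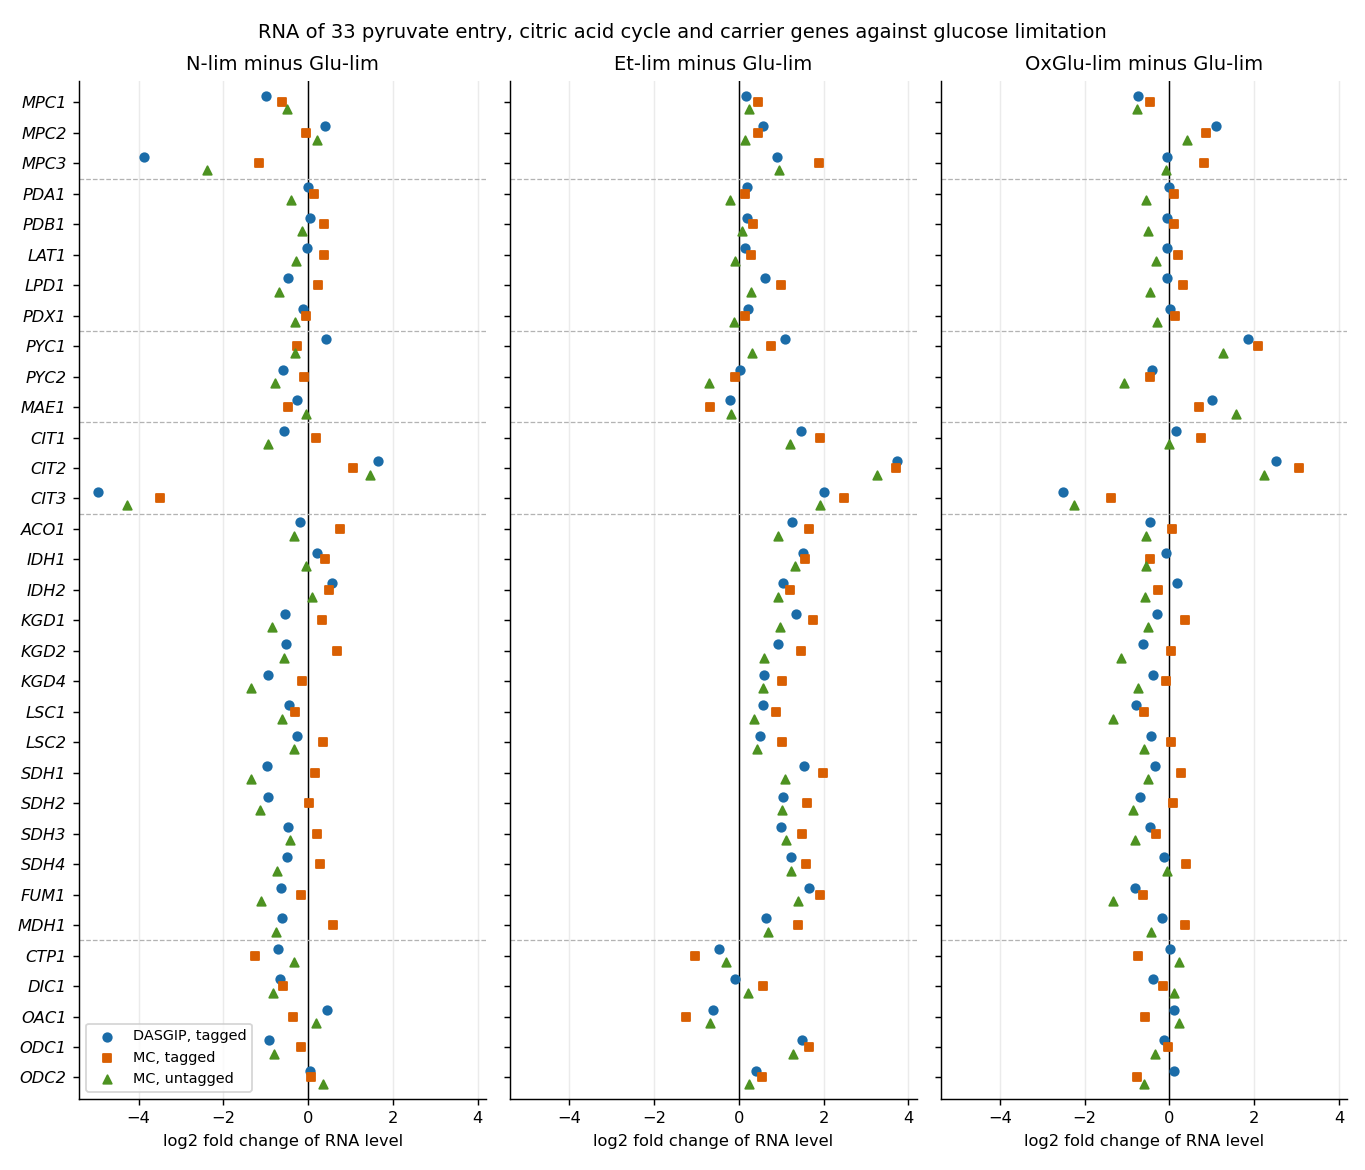
Log2 fold change (x axis) of each of the 33 members (y axis, ordered by role) against Glu-lim in each set, with 1 point per set and dashed lines between roles. Under Et-lim all 16 cycle enzyme genes lie right of 0 in every set, while under N-lim and OxGlu-lim most MC tagged points of the cycle enzymes lie to the right of the points of the other sets. CIT2 lies right of 0 and CIT3 left of 0 under N-lim and OxGlu-lim in every set.

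The mitochondrial pyruvate carrier brings pyruvate across the inner membrane as a pair of Mpc1 with either Mpc2 or Mpc3, and in yeast Mpc3 is the partner used in respiring cells. MPC3 (YGR243W, chromosome VII, 977336 to 977776, plus strand, build R64, a single exon) gave 126, 106 and 159 CPM (DASGIP tagged), 77.7, 84.3 and 91.7 CPM (MC tagged) and 146, 157 and 159 CPM (MC untagged) under Glu-lim. Under N-lim it gave 5.76, 5.83 and 15.8 CPM (DASGIP tagged), 22.2, 17.0 and 75.0 CPM (MC tagged) and 31.7, 24.2 and 33.1 CPM (MC untagged). Under Et-lim it gave 236, 227 and 264 CPM (DASGIP tagged), 312, 305 and 329 CPM (MC tagged) and 297, 313 and 283 CPM (MC untagged). N-lim was thus the lowest and Et-lim the highest in every set without overlap, and replicate 3 stood above the other N-lim libraries in both tagged sets. The log2 difference was -2.47 ± 0.21 under N-lim and 1.25 ± 0.19 under Et-lim, both called (edgeR adjusted p = 8.58e-12 and 2.76e-06). Under OxGlu-lim MPC3 spanned 102 to 224 CPM (median 141) and its difference of 0.23 ± 0.19 was not called.

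The alternative partner MPC2 followed another order. It spanned 81.3 to 162 CPM (median 102) under Glu-lim and 155 to 236 CPM (median 185) under OxGlu-lim, its highest condition, with a called difference of 0.79 ± 0.08. Under Et-lim it was called higher by 0.40 ± 0.08 and under N-lim by 0.19 ± 0.08, and its N-lim and Glu-lim libraries overlapped in both MC sets. The N-lim call was lost in several alternatives, among them 0.14 without replicate 3 of MC tagged N-lim. The shared partner MPC1 spanned 42.2 to 67.7 CPM (median 54.0) under Glu-lim, was called lower under N-lim (-0.70 ± 0.07) and OxGlu-lim (-0.65 ± 0.07), and higher under Et-lim (0.29 ± 0.07). The ratio of MPC3 to MPC2, in counts per kb of coding sequence, was 0.566 to 1.73 (median 0.974) under Glu-lim, 1.26 to 2.17 (median 1.79) under Et-lim and 0.0423 to 0.534 (median 0.156) under N-lim. Its log2 change was -2.81 under N-lim, 0.86 under Et-lim and -0.58 under OxGlu-lim. Over the 15 tests on 5 gene pairs, the adjusted p from an exact two-sided permutation test over libraries within sets was 0.000341, 0.00125 and 0.00433, and the smallest raw p that test can give is 0.00025. In DASGIP tagged, MC tagged and MC untagged the ratio changed by 0.36, 1.43 and 0.79 under Et-lim. Under OxGlu-lim, where it spanned 0.417 to 0.839 (median 0.654), it changed by -1.16, -0.11 and -0.49 in these sets. The ratios overlapped those under Glu-lim in DASGIP tagged for Et-lim and in MC tagged for OxGlu-lim.

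**Figure D2:**
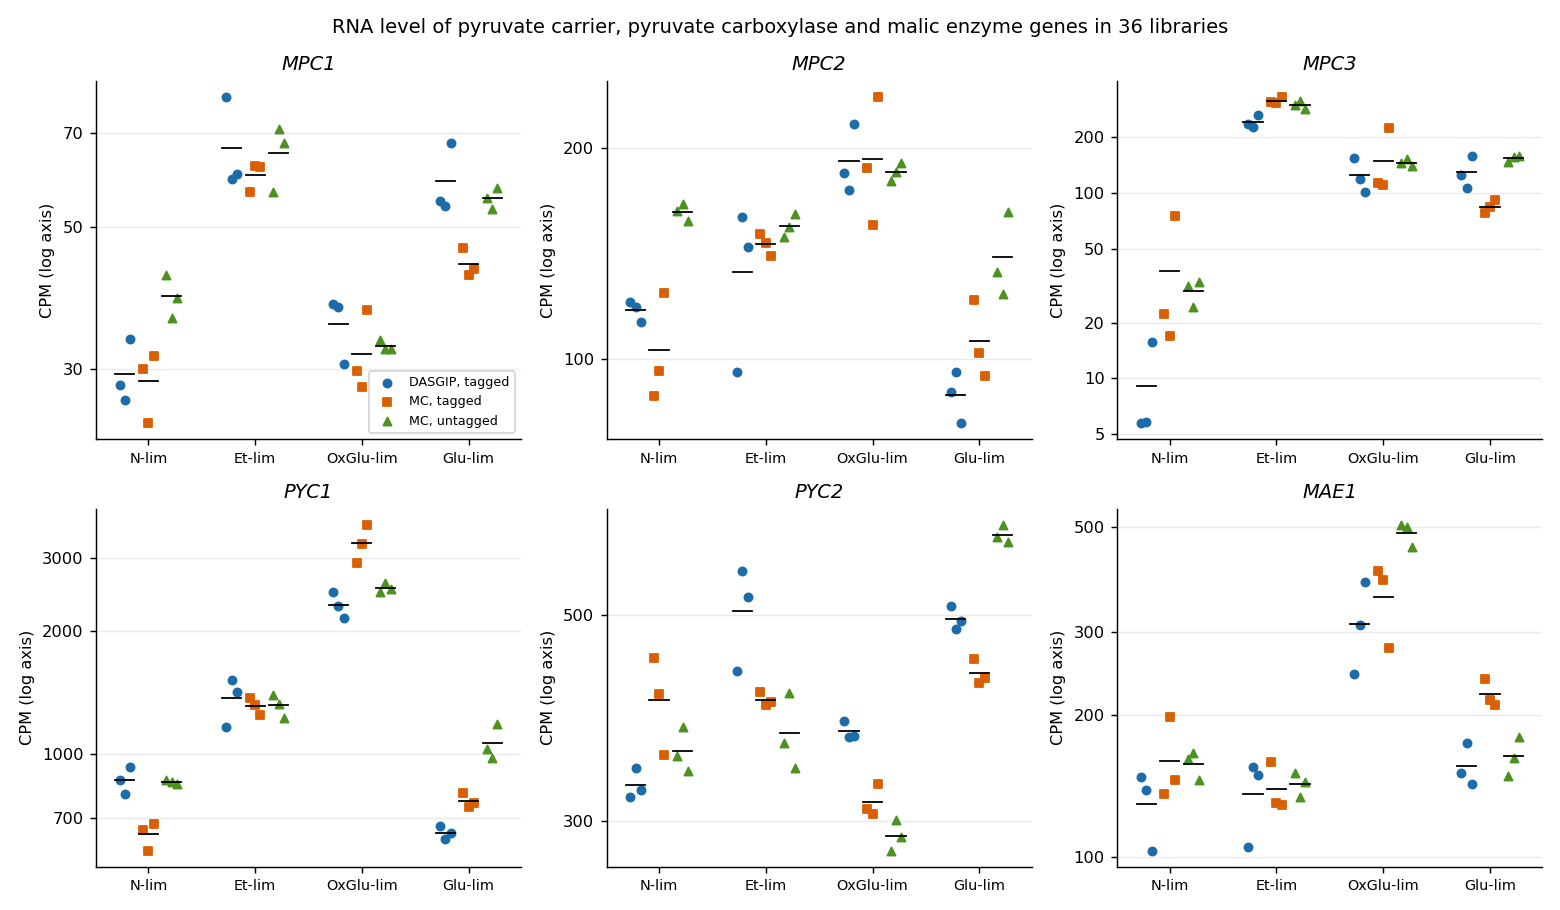
RNA level in CPM (log y axis) of the 3 pyruvate carrier genes, the 2 pyruvate carboxylase genes and the malic enzyme gene, with 1 point per library, colour and marker for the set, and a bar at each group mean of 3. MPC3 is lowest under N-lim and highest under Et-lim, while PYC1 and MAE1 are highest under OxGlu-lim.

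Pyruvate dehydrogenase turns the imported pyruvate into acetyl-CoA. Most of its genes differed little across the limitations in the mean of the 3 sets. PDA1, the alpha subunit of the first enzyme, spanned 327 to 409 CPM (median 369.7) under Glu-lim and 336 to 477 CPM (median 367) under Et-lim. Its Et-lim difference of 0.04 ± 0.04 was not called, nor was that of the binding protein PDX1 (0.08 ± 0.04). The beta subunit PDB1 (0.20 ± 0.05) and the acetyltransferase LAT1 (0.12 ± 0.05) were called higher, but by little, and with plain library totals PDB1 and LAT1 were at -0.0013 and -0.089. The subunit LPD1 is the dihydrolipoamide dehydrogenase that pyruvate and oxoglutarate dehydrogenase share. It spanned 432 to 671 CPM (median 577) under Et-lim against 278 to 419 CPM (median 379) under Glu-lim, a called difference of 0.64 ± 0.05. Over all 3 comparisons with Glu-lim the means of the 4 subunits other than LPD1 lay between -0.16 and 0.20. Plain library totals turned the sign of each of these 4 in at least 1 comparison. The sets were less alike. Under OxGlu-lim MC untagged stood at -0.54 (PDA1), -0.52 (PDB1), -0.30 (PDX1) and -0.32 (LAT1), and the other sets between -0.06 and 0.19. Under N-lim PDA1 was at -0.41 in MC untagged, and PDB1 and LAT1 were at 0.37 and 0.38 in MC tagged.

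Pyruvate carboxylase makes oxaloacetate from pyruvate in the cytosol and so refills the cycle. Its isoenzyme PYC1 (YGL062W, chromosome VII, 385196 to 388732, plus strand) gave 2488, 2299.9 and 2150.3 CPM (DASGIP tagged), 2917, 3247 and 3615 CPM (MC tagged) and 2484, 2610.5 and 2518 CPM (MC untagged) under OxGlu-lim. Under Glu-lim it gave 668, 623 and 642 CPM (DASGIP tagged), 805, 742 and 760.4 CPM (MC tagged) and 1029.7, 978 and 1186 CPM (MC untagged). The OxGlu-lim libraries were above every other library of their set, at a log2 difference of 1.73 ± 0.06 (edgeR adjusted p = 2.57e-21). PYC1 was also called higher under Et-lim (0.72 ± 0.06) and not called under N-lim (-0.05 ± 0.06), where the sets stood at 0.42, -0.27 and -0.32 in DASGIP tagged, MC tagged and MC untagged and plain library totals gave 0.38.

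Its close paralog PYC2 was called lower in all 3 comparisons, at -0.49 ± 0.05 under N-lim, -0.26 ± 0.05 under Et-lim and -0.65 ± 0.05 under OxGlu-lim. In DASGIP tagged, MC tagged and MC untagged it stood at -0.59, -0.10 and -0.78 under N-lim. Under Et-lim the sets stood at 0.03, -0.10 and -0.71, and under OxGlu-lim at -0.40, -0.46 and -1.08. The PYC1 to PYC2 ratio in counts per kb was 1.29 to 1.98 (median 1.70) under Glu-lim and 5.81 to 11.0 (median 8.77) under OxGlu-lim, a log2 change of 2.37 (adjusted p = 0.000341, exact permutation test). The ratio also rose under Et-lim (0.98, adjusted p = 0.000341, exact permutation test) and under N-lim (0.44, adjusted p = 0.0145, exact permutation test), where the MC tagged set went the other way at -0.17. Of all 50-base windows of PYC1, 8.46% also occur in PYC2, so reads there could be assigned to either gene. No such window is shared by the other 4 pairs tested. The malic enzyme MAE1, which makes pyruvate from malate inside the mitochondrion, gave 244, 310.3 and 382 CPM (DASGIP tagged), 404, 386 and 277 CPM (MC tagged) and 505, 500.4 and 455 CPM (MC untagged) under OxGlu-lim. Under Glu-lim it spanned 143 to 238 CPM (median 175), and the difference was 1.09 ± 0.09 (edgeR adjusted p = 2.03e-11), with no overlap within a set. Under Et-lim it was called lower at -0.35 ± 0.09.

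Citrate synthase condenses acetyl-CoA with oxaloacetate, and yeast has a gene for each of 3 isoenzymes: CIT1 for the main mitochondrial enzyme, CIT2 for the peroxisomal enzyme of the glyoxylate route and CIT3 for a minor mitochondrial enzyme that also acts on propionyl-CoA. These genes took different orders over the limitations. CIT2 (YCR005C, chromosome III, 120946 to 122328, minus strand) gave 169, 151 and 187 CPM (DASGIP tagged), 133, 135 and 131 CPM (MC tagged) and 193, 184 and 211 CPM (MC untagged) under Glu-lim. Under N-lim it gave 461, 452 and 681 CPM (DASGIP tagged), 243, 302 and 284 CPM (MC tagged) and 566, 393 and 659 CPM (MC untagged). Under Et-lim it gave 1801, 2529.5 and 2407 CPM (DASGIP tagged), 1849, 1721 and 1635 CPM (MC tagged) and 1973, 1742 and 1892 CPM (MC untagged). Glu-lim was its lowest condition in every set without overlap, and Et-lim its highest.

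Under OxGlu-lim CIT2 lay between those, at 827 to 1343 CPM (median 955). It was the only member called higher in all 3 comparisons in each set, by 1.39 ± 0.10 under N-lim, 2.60 ± 0.10 under OxGlu-lim and 3.56 ± 0.10 under Et-lim (edgeR adjusted p = 5.38e-14, 5.86e-20 and 1.80e-22). CIT3 (YPR001W, chromosome XVI, 556377 to 557837, plus strand) was lowest under N-lim, with 3.97, 3.83 and 5.09 CPM (DASGIP tagged), 5.24, 4.74 and 7.57 CPM (MC tagged) and 5.05, 5.33 and 6.15 CPM (MC untagged). Under Glu-lim it gave 128, 106 and 165 CPM (DASGIP tagged), 72.5, 63.3 and 62.4 CPM (MC tagged) and 103, 104 and 114 CPM (MC untagged). OxGlu-lim lay between at 17.5 to 38.6 CPM (median 22.3) and Et-lim highest at 354 to 564 CPM (median 415), so that the order N-lim, OxGlu-lim, Glu-lim, Et-lim held in every set without overlap. CIT3 was lower at -4.25 ± 0.12 under N-lim and -2.05 ± 0.11 under OxGlu-lim and higher by 2.13 ± 0.10 under Et-lim, all called.

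CIT1 (YNR001C, chromosome XIV, 629622 to 631061, minus strand) varied least of these. It spanned 454 to 849 CPM (median 665) under Glu-lim and 345 to 615 CPM (median 468) under N-lim. Under OxGlu-lim it spanned 663 to 918 CPM (median 752) and under Et-lim 1495 to 2308 CPM (median 1791). With the 3 sets pooled, only the Et-lim libraries were apart from the rest. Within DASGIP tagged and within MC untagged the N-lim libraries also lay below all others. Within MC tagged the OxGlu-lim libraries lay above those of N-lim and Glu-lim. The log2 differences were -0.44 ± 0.06, 0.29 ± 0.06 and 1.53 ± 0.07. In DASGIP tagged, MC tagged and MC untagged CIT1 stood at -0.56, 0.18 and -0.94 under N-lim. Under OxGlu-lim it stood at 0.15, 0.75 and -0.01 in these sets. The sets were unequal in both comparisons (F test of edgeR, adjusted p = 1.52e-05 and 0.00106). Per kb, the CIT2 to CIT1 ratio was 0.227 to 0.305 (median 0.299) under Glu-lim, 0.442 to 1.92 (median 1.05) under N-lim, 0.972 to 1.37 (median 1.07) under Et-lim and 1.05 to 1.54 (median 1.32) under OxGlu-lim. CIT2 RNA was thus below CIT1 RNA per length in every Glu-lim library and above it in every OxGlu-lim library, while N-lim and Et-lim libraries fell on both sides. The ratio's log2 change was 1.81, 2.03 and 2.30 in the N-lim, Et-lim and OxGlu-lim comparisons, and that of CIT3 to CIT1 was -3.81, 0.61 and -2.36. Each of these 6 changes had an adjusted p of 0.000341 in the exact permutation test.

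**Figure D3:**
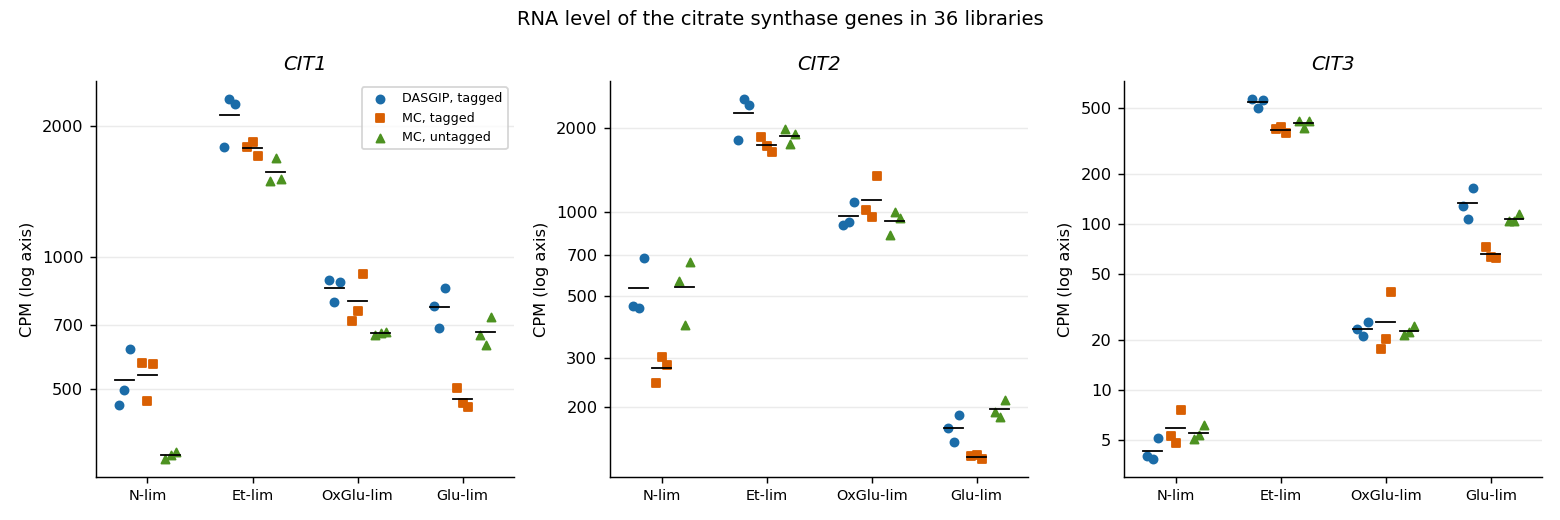
RNA level in CPM (log y axis) of the 3 citrate synthase genes, with 1 point per library, colour and marker for the set, and a bar at each group mean of 3. CIT2 is lowest under Glu-lim, CIT3 is lowest under N-lim and CIT1 is highest under Et-lim in every set.

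The upstream sequences of 5 genes are printed so that they can be set beside the levels: the 3 citrate synthases, which took different orders, FUM1, which had the largest Et-lim rise of the core cycle enzymes, and MPC3, which had the largest N-lim fall after CIT3. Each is 300 bases that end 100 bases before the start codon, 5′ to 3′ on the gene's strand, from the RefSeq R64 genome, which describes another laboratory strain than CEN.PK. Capitals mark matches on either strand to CCAAT (the Hap complex core, read as ATTGG on the other strand), GTCAC (the core of the R box of Rtg1 and Rtg3, read as GTGAC) and the carbon source response element of Cat8 and Sip4, taken as CC, any 6 bases, then CCG. In CIT2 the match ATTGG overlaps GTGAC by a base, and 199 of its 300 bases lie in another annotated gene. The windows are chrXIV:631162-631461, minus strand (CIT1), chrIII:122429-122728, minus strand (CIT2), chrXVI:555977-556276, plus strand (CIT3), chrXVI:46936-47235, plus strand (FUM1) and chrVII:976936-977235, plus strand (MPC3).
CIT1: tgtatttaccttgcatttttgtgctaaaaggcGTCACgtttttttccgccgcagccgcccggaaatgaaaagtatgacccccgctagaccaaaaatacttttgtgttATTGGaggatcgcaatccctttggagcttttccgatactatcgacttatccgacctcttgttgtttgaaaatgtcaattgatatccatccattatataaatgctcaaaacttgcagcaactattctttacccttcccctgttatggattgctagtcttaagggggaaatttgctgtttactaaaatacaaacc
CIT2: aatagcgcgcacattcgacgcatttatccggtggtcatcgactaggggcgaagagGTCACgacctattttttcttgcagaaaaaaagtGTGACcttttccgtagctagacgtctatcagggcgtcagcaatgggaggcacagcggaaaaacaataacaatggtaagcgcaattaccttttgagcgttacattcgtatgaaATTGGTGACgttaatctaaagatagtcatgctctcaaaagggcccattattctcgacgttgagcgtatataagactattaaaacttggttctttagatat
CIT3: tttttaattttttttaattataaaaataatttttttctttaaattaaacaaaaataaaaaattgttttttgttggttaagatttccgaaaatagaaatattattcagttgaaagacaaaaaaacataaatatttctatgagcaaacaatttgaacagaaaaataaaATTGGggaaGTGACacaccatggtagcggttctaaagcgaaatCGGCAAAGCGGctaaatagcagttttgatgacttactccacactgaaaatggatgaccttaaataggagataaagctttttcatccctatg
FUM1: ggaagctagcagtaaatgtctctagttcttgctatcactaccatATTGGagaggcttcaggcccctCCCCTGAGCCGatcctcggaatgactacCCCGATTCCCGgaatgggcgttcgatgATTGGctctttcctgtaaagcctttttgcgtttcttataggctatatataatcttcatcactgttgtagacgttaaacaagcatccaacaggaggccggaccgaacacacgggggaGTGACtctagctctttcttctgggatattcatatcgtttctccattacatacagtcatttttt
MPC3: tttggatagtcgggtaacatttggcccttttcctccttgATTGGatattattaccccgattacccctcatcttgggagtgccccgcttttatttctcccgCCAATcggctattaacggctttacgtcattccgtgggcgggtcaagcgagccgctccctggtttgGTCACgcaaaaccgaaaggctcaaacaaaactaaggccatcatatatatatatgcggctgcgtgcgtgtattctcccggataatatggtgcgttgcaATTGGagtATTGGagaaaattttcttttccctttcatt
CIT2 held 3 GTCAC matches, which begin 345, 312 and 196 bases before the start codon. FUM1 held 2 CCAAT, 2 carbon source element matches and a GTCAC match, and MPC3 held 4 CCAAT matches and a GTCAC match. CIT1 held a match each to CCAAT and GTCAC, and CIT3 a match to each of the 3 motifs. Of 6001 nuclear protein-coding genes with such a window, 43.9% held CCAAT, 29.4% GTCAC and 14.6% the carbon source element. Of the 33 members, 24 held CCAAT, 16 GTCAC and 10 the carbon source element, and of the 16 core cycle enzyme genes 13, 8 and 6 did. These are counts of letters in a fixed window, not of bound sites.

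The 16 core cycle enzyme genes are CIT1, ACO1, IDH1, IDH2, KGD1, KGD2, KGD4, LPD1, LSC1, LSC2, SDH1 to SDH4, FUM1 and MDH1. All 16 were called higher under Et-lim in the mean and in each of the 3 sets, where 16.9%, 24.8% and 19% of all tested genes were called higher in DASGIP tagged, MC tagged and MC untagged. Their mean log2 differences ran from 0.60 to 1.66 with a median of 1.22, and 10 passed 2-fold. All 16 were also called higher under Et-lim with plain library totals. Against N-lim and against OxGlu-lim, Et-lim was again higher for all 16, by a median of 1.36 and 1.51, where 36.7% and 35.7% of all tested genes were called higher. Under N-lim 2 of the 16 were called higher and 12 lower (median -0.32), where 34.3% and 37.4% of all tested genes were. Under OxGlu-lim 1 was called higher and 12 lower (median -0.33), where 32.9% and 32.3% were. But with plain library totals these counts were 7 and 4 under N-lim and 4 and 5 under OxGlu-lim.

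From citrate to oxoglutarate, aconitase ACO1 spanned 642 to 1255 CPM (median 897) under Glu-lim and 1495 to 2856 CPM (median 2122) under Et-lim, higher by 1.28 ± 0.07. The NAD-dependent isocitrate dehydrogenase subunits IDH1 and IDH2 were higher by 1.48 ± 0.07 and 1.06 ± 0.07 under Et-lim. IDH1 gave 387, 544 and 512 CPM (DASGIP tagged), 485, 498 and 473 CPM (MC tagged) and 481, 476 and 493 CPM (MC untagged) under Et-lim. It spanned 156 to 220.4 CPM (median 169) under Glu-lim, 158 to 261 CPM (median 189.8) under N-lim and 110.1 to 167 CPM (median 135) under OxGlu-lim, all below the Et-lim libraries. Under N-lim both subunits were called higher as well, IDH1 by 0.19 ± 0.07 and IDH2 by 0.39 ± 0.07. The IDH1 call was lost without replicate 1 of MC tagged N-lim (0.13, adjusted p = 0.0869 with edgeR) and without replicate 1 of MC untagged Glu-lim (0.16, adjusted p = 0.0608). ACO1 was not called under N-lim, but was called higher without replicate 3 of MC tagged N-lim (0.15, adjusted p = 0.0171) and with plain library totals (0.51). Under OxGlu-lim ACO1 (-0.32 ± 0.07), IDH1 (-0.37 ± 0.07) and IDH2 (-0.23 ± 0.07) were called lower, IDH2 with a value of 0.051 under plain library totals. ACO1 gave 2856, 2780.5 and 2630.1 CPM (DASGIP tagged), 2122, 2252 and 2088 CPM (MC tagged) and 1495, 1867 and 1718 CPM (MC untagged) under Et-lim. Under Glu-lim it gave 1161, 1018 and 1255 CPM (DASGIP tagged), 735, 657 and 642 CPM (MC tagged) and 908, 891 and 897 CPM (MC untagged). The MC tagged Glu-lim libraries were the lowest of these, and no Et-lim library overlapped a Glu-lim library.

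The oxoglutarate dehydrogenase complex makes succinyl-CoA. Its first enzyme KGD1 spanned 445 to 762 CPM (median 645) under Glu-lim and 1197 to 1795 CPM (median 1559) under Et-lim, higher by 1.36 ± 0.06. KGD1 gave 1613, 1795 and 1749 CPM (DASGIP tagged), 1559, 1570.1 and 1526 CPM (MC tagged) and 1197, 1471 and 1234 CPM (MC untagged) under Et-lim. Its Glu-lim values were 677, 597 and 762 CPM (DASGIP tagged), 472, 445 and 472 CPM (MC tagged) and 649, 645 and 686 CPM (MC untagged), without overlap. Its succinyltransferase KGD2 spanned 232 to 433 CPM (median 344) and 511 to 746 CPM (median 668), higher by 0.99 ± 0.06. KGD4, which ties the shared LPD1 subunit into the complex, spanned 46.2 to 64.3 CPM (median 58.5) under Glu-lim, 23.1 to 46.6 CPM (median 31.6) under N-lim and 79.7 to 103 CPM (median 93.2) under Et-lim. It was lower at -0.81 ± 0.04 under N-lim, the largest fall of the core cycle enzymes there, and the direction kept under plain library totals.

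Succinyl-CoA ligase, which makes succinate from succinyl-CoA, had among the smallest Et-lim rises of the core steps. LSC1 spanned 208 to 328 CPM (median 287) under Glu-lim, 369 to 458 CPM (median 415) under Et-lim and 117 to 179.5 CPM (median 148) under OxGlu-lim. It was higher by 0.60 ± 0.05 under Et-lim and lower at -0.91 ± 0.05 under OxGlu-lim, where its libraries lay below all others of their set. LSC2, the other subunit, was higher by 0.64 ± 0.05 under Et-lim, lower at -0.33 ± 0.05 under OxGlu-lim and not called under N-lim (-0.08 ± 0.05, and 0.35 under plain library totals).

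Succinate dehydrogenase is both a cycle enzyme and a complex of the respiratory chain, and all 4 of its genes rose under Et-lim. The flavoprotein SDH1 gave 1418, 1618 and 1591 CPM (DASGIP tagged), 1419.6, 1496 and 1394 CPM (MC tagged) and 990.0, 1294 and 1134 CPM (MC untagged) under Et-lim. Under Glu-lim it gave 541, 475 and 563 CPM (DASGIP tagged), 404, 351 and 339 CPM (MC tagged) and 526, 519 and 566 CPM (MC untagged), all below. SDH4 gave 237, 246 and 250.4 CPM (DASGIP tagged), 243, 266 and 246 CPM (MC tagged) and 194, 233 and 229 CPM (MC untagged) under Et-lim. Its Glu-lim values were 108, 98.5 and 104 CPM (DASGIP tagged), 89.5, 79.9 and 80.1 CPM (MC tagged) and 98.7, 87.4 and 94.3 CPM (MC untagged), again without overlap. The rises were 1.54 ± 0.07 for SDH1, 1.23 ± 0.06 for the iron-sulphur subunit SDH2, and 1.20 ± 0.06 and 1.35 ± 0.05 for the membrane anchors SDH3 and SDH4. Under N-lim all 4 were called lower in the mean, SDH1 at -0.72 ± 0.06 and SDH2 at -0.69 ± 0.06, but plain library totals put SDH3 and SDH4 at 0.20 and 0.10. The sets were unequal. In MC tagged the values under N-lim were 0.15 (SDH1), 0.03 (SDH2), 0.21 (SDH3) and 0.27 (SDH4). In DASGIP tagged and MC untagged they lay between -1.34 and -0.42.

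Fumarase FUM1 (YPL262W, chromosome XVI, 47336 to 48802, plus strand), whose product acts in mitochondria and cytosol, gave 1021, 1068 and 995 CPM (DASGIP tagged), 968, 1077 and 1031 CPM (MC tagged) and 934, 1039 and 964 CPM (MC untagged) under Et-lim. Under Glu-lim it spanned 261 to 421 CPM (median 331), under N-lim 167 to 285 CPM (median 199) and under OxGlu-lim 141 to 190.3 CPM (median 177). Et-lim lay above and OxGlu-lim below all other libraries of each set, at 1.66 ± 0.06 and -0.92 ± 0.06 (edgeR adjusted p = 3.17e-20 and 1.36e-14). The mitochondrial malate dehydrogenase MDH1, which closes the cycle, was higher by 0.91 ± 0.05 under Et-lim, lower at -0.27 ± 0.05 under N-lim and not called under OxGlu-lim (-0.08 ± 0.05). Plain library totals turned these last values to 0.16 and 0.20.

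Compared per length, the core cycle RNAs were unequal. Under Glu-lim the median over 9 libraries was 468 CPM per kb for SDH2, 462 for CIT1 and 384 for ACO1, against 150.2 for IDH2, 156 for IDH1 and 157 for KGD4. Under Et-lim CIT1 led these at 1244 CPM per kb and SDH2 followed at 1014, while KGD4 was at 251. CIT2 went from 122 to 1337 CPM per kb between these limitations.

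Of the 5 carriers of cycle acids, 3 were called higher under Et-lim and 2 lower, where 30.6% and 28.7% of all tested genes were. ODC1, which exchanges oxoglutarate and related acids, spanned 69.0 to 89.6 CPM (median 76.5) under Glu-lim, 176 to 256 CPM (median 213) under Et-lim and 35.4 to 76.5 CPM (median 49.9) under N-lim, higher by 1.48 ± 0.07 and lower at -0.63 ± 0.07. In single libraries it gave 198, 256 and 235 CPM (DASGIP tagged), 232, 213 and 216 CPM (MC tagged) and 176, 208 and 192 CPM (MC untagged) under Et-lim. Its Glu-lim values were 85.6, 76.5 and 82.0 CPM (DASGIP tagged), 69.9, 71.1 and 69.0 CPM (MC tagged) and 71.8, 77.0 and 89.6 CPM (MC untagged), without overlap. Its paralog ODC2 spanned 66.6 to 92.3 CPM (median 74.7) and 76.7 to 114 CPM (median 103), higher by 0.39 ± 0.06. The ODC1 to ODC2 ratio per kb was 0.919 to 1.22 (median 0.987) under Glu-lim and 1.93 to 2.56 (median 2.08) under Et-lim, a log2 change of 1.08, and fell by 0.79 on the log2 scale under N-lim (adjusted p = 0.000341 for both, exact permutation test). Under OxGlu-lim the change of 0.24 did not pass that test (adjusted p = 0.0855). The N-lim falls were smallest in MC tagged. In DASGIP tagged, MC tagged and MC untagged ODC1 stood at -0.93, -0.16 and -0.79 under N-lim, and the ratio changed by -0.98, -0.24 and -1.15. The ODC1 levels under N-lim and Glu-lim overlapped in MC tagged.

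The oxaloacetate carrier OAC1 went the other way and was the only member called lower under Et-lim in each set (-0.85 ± 0.12, edgeR adjusted p = 4.08e-07), with 31.5 to 47.4 CPM (median 35.9) under Et-lim and 53.5 to 93.1 CPM (median 64) under Glu-lim. The citrate carrier CTP1 was lower at -0.60 ± 0.09 under Et-lim and -0.76 ± 0.08 under N-lim, with the largest falls in MC tagged. In DASGIP tagged, MC tagged and MC untagged it stood at -0.47, -1.03 and -0.30 under Et-lim. Under N-lim it stood at -0.70, -1.24 and -0.32 in these sets. The dicarboxylate carrier DIC1 spanned 63.5 to 105 CPM (median 82.8) under Glu-lim and 36.9 to 71.9 CPM (median 46.9) under N-lim, lower at -0.70 ± 0.08 there, and was higher by 0.23 ± 0.08 under Et-lim.

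**Figure D4:**
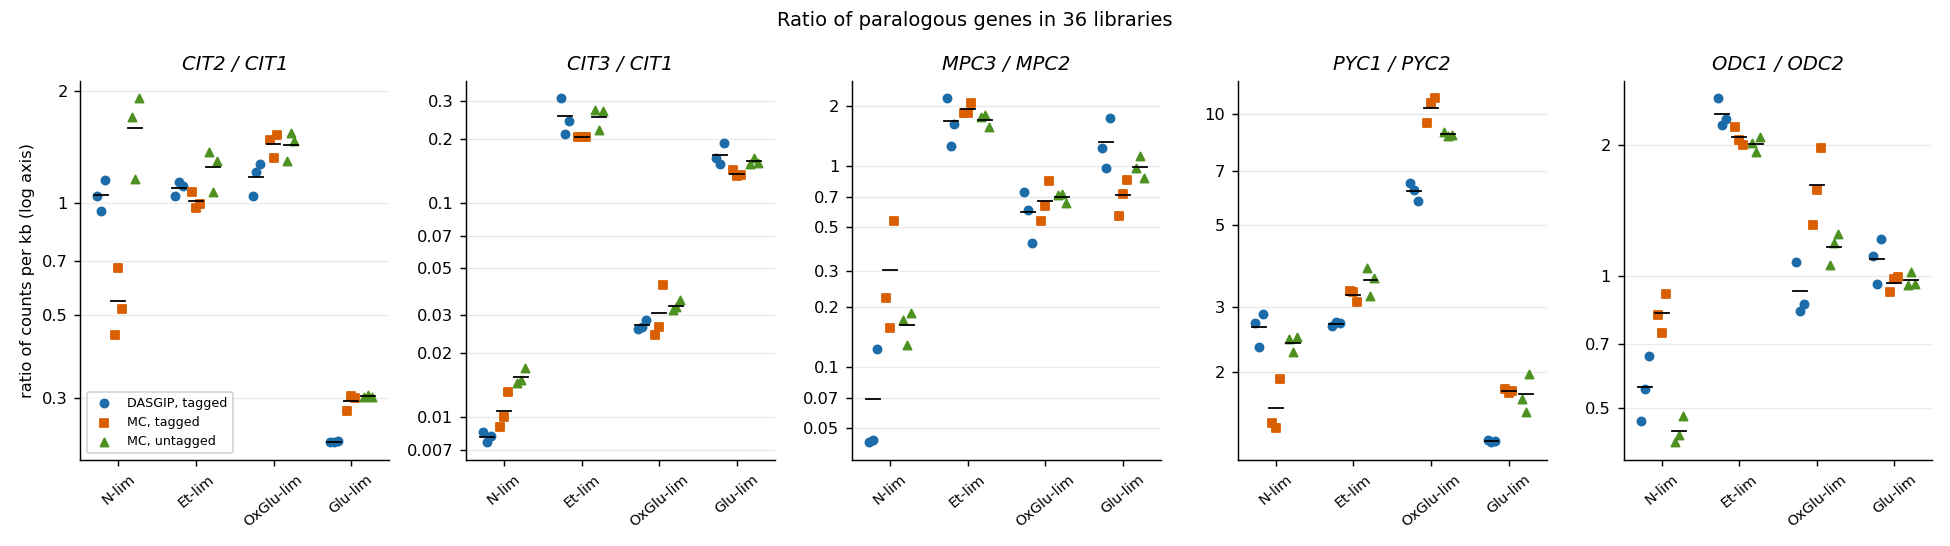
Ratio of counts per kb (log y axis) of 5 pairs of related genes, with 1 point per library, colour and marker for the set, and a bar at each group mean of 3. CIT2 to CIT1 is lowest under Glu-lim, CIT3 to CIT1 and MPC3 to MPC2 are lowest under N-lim, PYC1 to PYC2 is highest under OxGlu-lim and ODC1 to ODC2 is highest under Et-lim by median.

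Outside the members, 34 further genes of the pathway and its regulators were followed. Of these 16 were called higher and 7 lower under Et-lim, 8 higher and 19 lower under N-lim, and 4 higher and 16 lower under OxGlu-lim. The shares over all tested genes were 30.6% higher and 28.7% lower under Et-lim, 34.3% and 37.4% under N-lim, and 32.9% and 32.3% under OxGlu-lim. Isoenzymes and carriers gave the largest values. The succinate-fumarate carrier SFC1 was at 2.68 ± 0.12 under Et-lim, -5.85 ± 0.15 under N-lim and -3.83 ± 0.13 under OxGlu-lim. The cytosolic malate dehydrogenase MDH2 was at 3.79, -1.55 and -1.85, and the cytosolic isocitrate dehydrogenase IDP2 at 1.79, -3.82 and -3.87, all called. SFC1 had only 1.45 to 4.85 CPM in the N-lim libraries, so the size of its fall there rests on few counts. All 7 assembly factors and paralogs of succinate dehydrogenase were called lower under N-lim, with SHH3, a paralog of SDH3, at -3.31 ± 0.10. Under Et-lim, where the 4 subunit genes were higher, only the assembly factors SDH7 and SDH8 were called higher, while SHH3 (-2.10 ± 0.09) and SHH4 (-1.28 ± 0.10) were called lower.

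PKP2, a kinase that inactivates pyruvate dehydrogenase, was called lower in all 3 comparisons, at -0.47 under Et-lim, -1.02 under N-lim and -1.15 under OxGlu-lim. Among 9 regulators, HAP4, the activating subunit of the Hap complex, was higher by 0.64 ± 0.06 under Et-lim, 0.59 ± 0.06 under OxGlu-lim and 0.20 ± 0.06 under N-lim. The N-lim libraries were all above Glu-lim for HAP4 only in MC tagged, at 300, 301 and 386 against 181, 167 and 167 CPM. In DASGIP tagged they were lower, at 156, 175 and 185 against 211, 215 and 236 CPM. In MC untagged they overlapped, at 206 to 222 against 195 to 231 CPM. CAT8, an activator of growth on non-fermentable carbon, was higher by 0.67 ± 0.10 under Et-lim and at -1.33 ± 0.10 under N-lim. The retrograde regulator RTG1 was at 0.43 ± 0.07 under N-lim and -0.20 ± 0.07 under Et-lim, and RTG3 was called in none of the 3 comparisons.

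The sets were also compared as means over the 4 limitations. In MC tagged against DASGIP tagged libraries, the vessel comparison, 3 members were called higher and 13 lower, where 17.1% of all tested genes were called higher and 17.3% lower. The largest were MPC3 (0.53 ± 0.17), MAE1 (0.25 ± 0.08) and SDH2 (0.22 ± 0.05) upward and CIT2 (-0.37 ± 0.08), ACO1 (-0.29 ± 0.06) and DIC1 (-0.28 ± 0.07) downward. In MC tagged against MC untagged libraries, the strain comparison, 11 were called higher and 4 lower, where 8.38% and 9.77% were. The largest were SDH4 (0.30 ± 0.05), KGD4 (0.28 ± 0.04) and MDH1 (0.27 ± 0.05) upward and CIT2 (-0.34 ± 0.08), MPC2 (-0.27 ± 0.07) and MPC1 (-0.23 ± 0.06) downward. None reached 2-fold in either mean comparison. The MPC3 call was lost without replicate 3 of MC tagged N-lim (0.29, adjusted p = 0.0754 with edgeR). The count of 3 became 6 without replicate 1 of MC tagged OxGlu-lim and 5 without replicate 1 of MC untagged Et-lim, and plain library totals gave 1 higher for the vessel and 20 higher and 1 lower for the strain. The mean over limitations joined differences of opposite sign.

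Under Glu-lim the MC tagged libraries had less RNA of the cycle enzymes than either other set: 12 of the 16 were called lower than in DASGIP tagged and 13 lower than in MC untagged, and none higher. With plain library totals these counts were 14 and 4. The background under Glu-lim was 11.9% called lower in the vessel comparison and 14.4% in the strain comparison. Under N-lim the direction was the opposite: 8 of 16 were called higher than in DASGIP tagged and 13 higher than in MC untagged, and none lower, where 10.6% and 17.1% of all tested genes were called higher. With plain library totals these were 7 and 15. Without replicate 3 of MC tagged N-lim, 1 was called lower than in DASGIP tagged. Under OxGlu-lim 8 were higher than in MC untagged (background 12.3%), and under Et-lim none was called in the strain comparison, where 0.272% of all tested genes were. In the vessel comparison, 1 was called lower under Et-lim (background 6%), while 1 was higher and 2 were lower under OxGlu-lim (8.91% and 8.73%).

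MDH1 shows the pattern library by library. Under Glu-lim it gave 185, 191 and 172 CPM in MC tagged, against 290.2, 263 and 312 in DASGIP tagged and 248, 250.0 and 251 in MC untagged. Under N-lim it gave 313, 275 and 231 CPM in MC tagged, against 187, 164 and 209.6 in DASGIP tagged and 149, 154 and 141 in MC untagged. The MC tagged libraries were lowest under Glu-lim and highest under N-lim, without overlap in either. The strain difference was -0.45 ± 0.09 under Glu-lim and 0.88 ± 0.09 under N-lim.

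**Figure D5:**
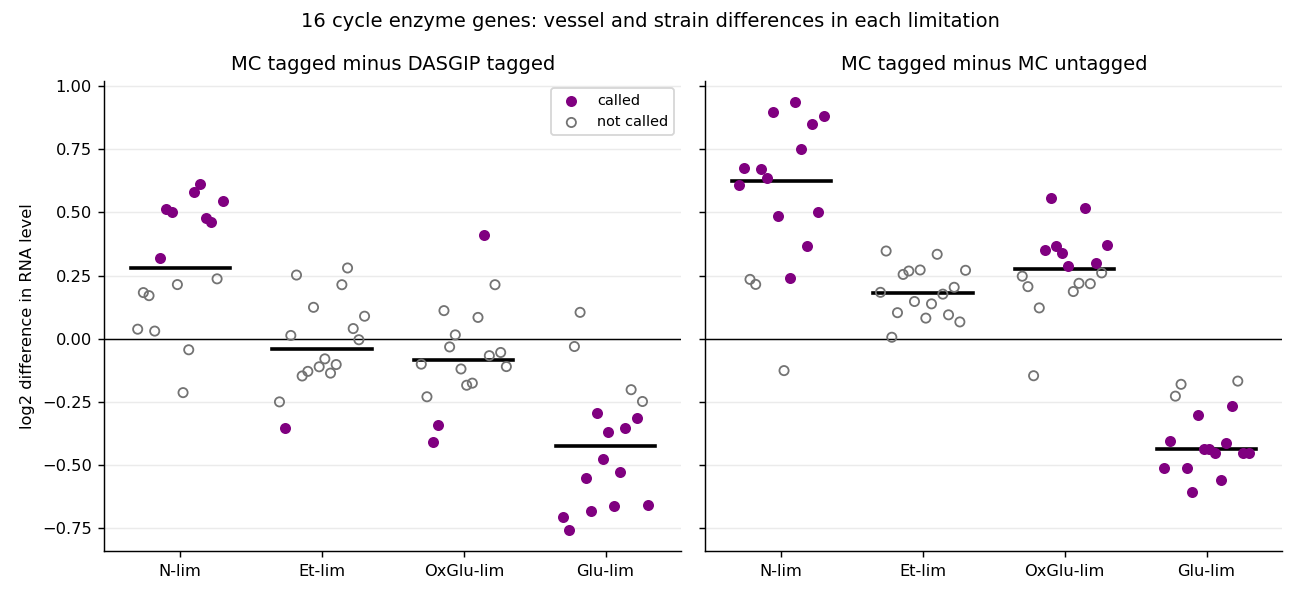
Log2 difference (y axis) of the 16 core cycle enzyme genes between MC tagged and DASGIP tagged libraries (left) and between MC tagged and MC untagged libraries (right) in each limitation (x axis), with 1 point per gene, filled where called, and a bar at the median. In both panels the median is above 0 under N-lim and below 0 under Glu-lim, and the MC tagged libraries are in both panels.

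The difference between limitations therefore depended on the set for many members. An F test of whether the difference from Glu-lim was equal in the 3 sets was passed by 25 of 33 members under N-lim, 18 under Et-lim and 28 under OxGlu-lim, where 41%, 14.4% and 40.9% of all tested genes passed. Under N-lim 13 of the 16 core cycle enzymes were called lower in DASGIP tagged and 14 in MC untagged, while 9 were called higher and 1 lower in MC tagged. Without replicate 1 of the MC tagged N-lim libraries the MC tagged counts were 5 higher and 2 lower, and without replicate 1 of MC tagged Glu-lim 2 were lower. Plain library totals gave 15 higher and 0 lower in MC tagged under N-lim. Under OxGlu-lim 10 were called lower in DASGIP tagged and 14 in MC untagged, against 6 higher and 4 lower in MC tagged, or 8 and 2 with plain library totals. The background in these sets was 28.6%, 32.8% and, for MC tagged, 27.2% higher and 28% lower under N-lim, and 22.7%, 29%, and 22.5% higher and 22.6% lower under OxGlu-lim.

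Members called in opposite directions in different sets numbered 9 under N-lim (ACO1, KGD1, KGD2, LSC2, SDH4, MDH1, LPD1, LAT1 and PYC1), 4 under OxGlu-lim (KGD1, SDH1, MDH1 and LPD1) and 1 under Et-lim (PDA1), where 4.55%, 3.98% and 1.48% of all tested genes were. KGD2, for example, stood at -0.52, 0.68 and -0.56 under N-lim in DASGIP tagged, MC tagged and MC untagged (F test of edgeR, adjusted p = 1.50e-07). Called in the same direction in every set were CIT2 (higher) and CIT3, LSC1, MPC1, MPC3 and DIC1 (lower) under N-lim, where 15.1% and 15.3% of all tested genes were. Under OxGlu-lim these were CIT2, PYC1, MPC2 and MAE1 (higher, background 10.3%) and CIT3, LSC1, SDH3, FUM1, PYC2 and MPC1 (lower, 11.5%). Under Et-lim 21 members were called higher in every set (8.41%) and OAC1 lower (7.58%). The mitochondrially encoded share of counts in Glu-lim libraries was 25.1% to 29.9% in DASGIP tagged, 30.1% to 38.6% in MC tagged and 29.3% to 34.6% in MC untagged. With nuclear protein-coding lines only, 12 cycle enzymes were lower in MC tagged than in DASGIP tagged under Glu-lim, and 13 lower than in MC untagged. Under N-lim 8 and 13 were higher. Those are the counts found with all lines. The share as a cause of differences between sets was not tested.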

How the data were processed

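RNA was measured in 36 chemostat libraries of S. cerevisiae, 12 groups of 3, by a stranded total RNA kit with ribosomal RNA depletion, per the labels' protocols. The authors deposited raw counts per gene line in 3 tables of 7122 lines, made with Bowtie2, SAMtools and bedtools on build R64, per the submitters' processing notes; the sources used here do not give tool versions, the strand setting or the counting rule. Another 36 per-sample columns of those tables, which hold scaled values, were not used. The strains are CEN.PK while the reference is R64, so reads over strain differences may be lost alike in all groups.

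Counts were fitted with edgeR 4.0.16 in R 4.3.3 in a single model of the 12 groups (TMM factors, filterByExpr, quasi-likelihood F tests on 24 residual degrees of freedom), and p-values were adjusted over all 6612 genes tested. Libraries held 10700506 to 22488845 counts, and members such as CIT3 under N-lim (median 5.09 CPM) rest on the fewest. Ratios of paired genes used exact two-sided permutation tests with labels exchanged within sets (8000 arrangements, 15 tests). Coordinates, coding lengths and upstream sequence came from the RefSeq R64 genome and annotation, in which no member overlaps another gene.

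The members and lists were chosen with earlier results of these data known. Genes given in full were those past an adjusted p of 0.05 and a log2 difference of at least 1 in size with the same sign in all sets (the 10 largest), both genes of each ratio, the 3 largest and 3 smallest called vessel and strain differences, and the smallest F test p-values between sets. Alternatives were RLE, upper-quartile and plain-total scaling, nuclear protein-coding lines only, no filter or a filter of 5 CPM in 3 libraries, a replicate block, fits of the compared libraries alone, DESeq2 1.42.0 and leaving out each library. Counts of cycle enzymes between sets without single libraries or under other scaling were added after seeing the data. The triplicates are stated to be biological; the labels do not say whether they are separate vessels, so p-values measure the spread between these libraries.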

Additional observations from a re-analysis of the deposited data

Results flagged for a closer look

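These results were singled out because the difference from Glu-lim was unequal between the 3 sets by an F test of edgeR. Under N-lim 25 members passed it, under Et-lim 18 and under OxGlu-lim 28, where 41%, 14.4% and 40.9% of all tested genes did. The log2 differences below are in the order DASGIP tagged, MC tagged, MC untagged, and their 4 smallest adjusted p-values per limitation are given.

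Under N-lim KGD4, of the oxoglutarate dehydrogenase complex, stood at -0.94, -0.15 and -1.35 (adjusted p = 7.11e-09), and the malate dehydrogenase MDH1 at -0.63, 0.58 and -0.75 (adjusted p = 8.45e-09). KGD2 stood at -0.52, 0.68 and -0.56 and SDH1 at -0.96, 0.15 and -1.34 (adjusted p = 1.50e-07 for both). In each of these the MC tagged value was the highest. Under Et-lim the carboxylase PYC2 stood at 0.03, -0.10 and -0.71 (adjusted p = 0.000284), with the MC untagged set apart from the others. MDH1 at 0.65, 1.40 and 0.68 (adjusted p = 0.000331), KGD2 at 0.92, 1.47 and 0.60 (adjusted p = 0.000622) and LPD1 at 0.63, 1.00 and 0.28 (adjusted p = 0.000959) were highest in MC tagged. Their direction was the same in every set.

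Under OxGlu-lim KGD2 stood at -0.62, 0.03 and -1.13 (adjusted p = 6.99e-06), and the pyruvate dehydrogenase subunit PDA1 at -0.01, 0.12 and -0.54 (adjusted p = 3.68e-05). SDH2 stood at -0.69, 0.08 and -0.85 (adjusted p = 6.39e-05) and LSC1 at -0.79, -0.61 and -1.34 (adjusted p = 6.51e-05). The MC tagged value was again the highest of the 3 sets, and the MC untagged value the lowest. A batch that ran with a set cannot be told apart from the set.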

How the results depend on the processing

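Scaling by plain library totals moved the median of all genes by 0.41 under N-lim, -0.20 under Et-lim, 0.29 under OxGlu-lim, -0.09 for the vessel and 0.14 for the strain, and was the only setting under which a called member turned direction. It gave 16 members higher and 10 lower under N-lim, 12 and 8 under OxGlu-lim, 1 higher for the vessel, and 20 higher and 1 lower for the strain. It turned KGD1 (0.070), KGD2 (0.30), LSC2 (0.35), SDH3 (0.20), SDH4 (0.10), MDH1 (0.16), LPD1 (0.12), PDA1 (0.34), PDX1 (0.27), PYC1 (0.38) and MAE1 (0.17) under N-lim. Under Et-lim it turned PDA1 (-0.16), PDB1 (-0.0013), PDX1 (-0.13) and LAT1 (-0.089). Under OxGlu-lim it turned IDH2 (0.051), KGD1 (0.14), SDH1 (0.091), MDH1 (0.20), LPD1 (0.21), PDA1 (0.14), PDB1 (0.12), PDX1 (0.23), LAT1 (0.22) and ODC1 (0.11), and in the strain comparison PDX1 (0.13) and PYC2 (0.13). Within the MC tagged set it gave 15 cycle enzymes higher and 0 lower under N-lim and 2 lower under OxGlu-lim, and 4 cycle enzymes lower in MC tagged than MC untagged under Glu-lim. The mitochondrially encoded counts, which plain totals include at full weight, differ between limitations.

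The vessel count of 3 higher became 6 with upper-quartile factors, 5 with nuclear protein-coding lines only and 5 with DESeq2, and its 13 lower became 8 with only the libraries compared. The N-lim count of 5 higher became 3 with the filter of 5 CPM. Leaving out each library gave 2 to 5 higher under N-lim and 2 to 6 higher for the vessel. Under OxGlu-lim it gave 14 to 20 lower (19 with all libraries). For the Et-lim F test between sets it gave 14 to 22 members (18 with all libraries). Within MC tagged it gave 5 to 9 cycle enzymes higher and 1 to 2 lower under N-lim, and 0 to 1 lower in MC tagged than DASGIP tagged under N-lim. The causes of these changes were not tested. Under Et-lim it gave 26 to 28 higher and 4 lower. The ratio of PYC1 to PYC2 under N-lim turned in the MC tagged set alone (-0.17).

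The other settings and omitted libraries turned no called member, and calls they changed were of differences up to 0.19 in the limitation and strain comparisons. For the vessel, MPC3 lost its call with only the libraries compared (0.54, adjusted p = 0.0510). Deviations of log CPM from the group mean correlated between -0.178 and 0.293 for same-numbered replicates within a set. The numbers were therefore not taken as pairs. With a replicate block by set the counts were 5 higher and 21 lower under N-lim, 27 and 4 under Et-lim, and 5 and 20 under OxGlu-lim. Among the members, depth limits mostly CIT3 and MPC3 under N-lim, and outside the members it also limits SFC1 there.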
